A study of Mus musculus with 18 samples.

Results

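The 8 genes described here are the neural crest transcription factors Sox10, Foxd3, Tfap2a, Tfap2b, Snai2 and Ets1 and the receptors Erbb3 and Ednrb. They were taken by symbol from the 53465 Ensembl genes of the table, and each symbol matched 1 gene. All are protein-coding genes, and in GRCm38 they lie apart from each other. The coordinates place Sox10 on chromosome 15 from 79154908 to 79165240 (minus strand), Foxd3 on chromosome 4 from 99656299 to 99658622 (plus strand) and Tfap2a on chromosome 13 from 40715302 to 40738376 (minus strand). They further place Tfap2b on chromosome 1 from 19208914 to 19238576 (plus strand), Snai2 on chromosome 16 from 14705852 to 14709385 (plus strand) and Ets1 on chromosome 9 from 32636221 to 32757820 (plus strand). Of the receptors, Erbb3 is on chromosome 10 from 128567523 to 128589652 (minus strand) and Ednrb is on chromosome 14 from 103814625 to 103844402 (minus strand). RNA-seq was done on pieces of the body axis of mouse embryos at embryonic day 9, and 2 pieces were cut from each embryo. The posterior piece held the tail end of the axis and the youngest somites, and the anterior piece held the remaining axis that bears somites, without the head region in front of it. Embryos lacking Meis1 and Meis2 through conditional deletion with Delta1Cre (DKO) were compared with control embryos, whose own alleles are not given in the sources used here. Meis1 and Meis2 encode homeodomain transcription factors, and the series was designed to look for their targets in skeletal patterning along the axis. The 18 libraries came from 5 control embryos of 20 to 24 somites and 4 DKO embryos of 20 to 24 somites, giving 5 control and 4 DKO libraries in each region. The number after a group's name is the embryo, so that anterior control 1 and posterior control 1 are the pieces of 1 embryo. The sources used here do not say in which cells Delta1Cre acted, and gene counts cannot show whether the crest cells themselves had lost the Meis genes.

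Neural crest cells arise at the border of the neural plate, leave the dorsal neural tube by an epithelial to mesenchymal transition and migrate through and around the somites to form sensory and autonomic ganglia, glia and pigment cells. TFAP2 factors and FOXD3 act early in their specification, SNAI2 and ETS1 act around their departure from the neural tube, and SOX10 is kept in migrating crest and its glial and melanocyte progeny. Crest is patterned from head to tail, and production of crest follows the maturation of somites and neural tube, so that anterior levels hold older crest than posterior levels. None of the 8 genes is restricted to crest. Ets1 is also an endothelial gene, Snai2 is also expressed in somite-derived mesenchyme, TFAP2 genes are also expressed in surface ectoderm and parts of the kidney primordium, and Ednrb is also expressed outside crest. In a bulk sample, fewer cells of a type and less RNA per cell cannot be told apart.

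Total counts ran from 12650973 to 38180348 per library, so that 3 counts, used here as the limit of what a count of 0 allows, equalled 0.0791 to 0.233 CPM (counts of a gene per 1000000 counts of its library). All 8 genes passed the filter on low counts in each of the 7 comparisons, and their lowest expected counts in any library ran from 88 for Foxd3 to 1057 for Ets1. The region labels matched the tail bud genes: T was at 2.96 to 5.60 CPM in anterior and 83.0 to 136 CPM in posterior libraries. For Meis2 the log2 fold change in DKO was -0.41 in the anterior piece (edgeR adjusted p = 0.0522) and -0.52 in the posterior piece (adjusted p = 0.196), and Meis1 of -0.30 (adjusted p = 0.123) and -0.55 (adjusted p = 0.336). A count over the whole gene does not show a deleted exon, so it is a weak check of the genotype labels. Both libraries of 1 embryo, control 1, went against the embryo's sex label, and leaving that embryo out changed no call of the 8 genes.

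Per kilobase of exon, the order of the 8 genes differed between the pieces. In the anterior control piece Ednrb, the receptor for endothelin 3 on migrating crest, had the highest level at 17.4 ± 2.40 CPM per kb (SD, n = 5). Sox10 at 11.5 ± 0.93 and Ets1 at 11.3 ± 1.15 CPM per kb came next and did not differ beyond their spread. Snai2 at 5.42 ± 0.75 and Tfap2b at 4.94 ± 0.55 CPM per kb lay within each other's spread, above Erbb3 at 4.19 ± 0.26 CPM per kb. Foxd3 at 3.17 ± 0.41 and Tfap2a at 2.84 ± 0.20 CPM per kb were lowest and did not differ beyond their spread. In the posterior control piece Ets1 was highest at 9.76 ± 1.04 and Snai2 next at 6.91 ± 1.24 CPM per kb. Ednrb at 4.27 ± 0.84, Foxd3 at 4.10 ± 1.27 and Sox10 at 3.77 ± 1.25 CPM per kb lay within each other's spread. Tfap2a at 2.95 ± 0.21, Erbb3 at 2.91 ± 0.31 and Tfap2b at 2.60 ± 0.53 CPM per kb followed and also lay within the spread of Sox10. The order in DKO was Ednrb, Sox10, Ets1, Tfap2b, Erbb3, Foxd3, Tfap2a and Snai2 in the anterior piece, where Snai2 was at 3.31 ± 0.70 CPM per kb (SD, n = 4). In the posterior DKO piece it was Ets1 at 7.84 ± 1.29, then Foxd3 at 4.89 ± 1.21, Ednrb at 4.74 ± 1.24, Snai2 at 4.56 ± 0.75 and Sox10 at 4.39 ± 1.31 CPM per kb, which overlapped, with the other 3 genes between 2.62 and 3.11 CPM per kb.

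**Figure D1:**
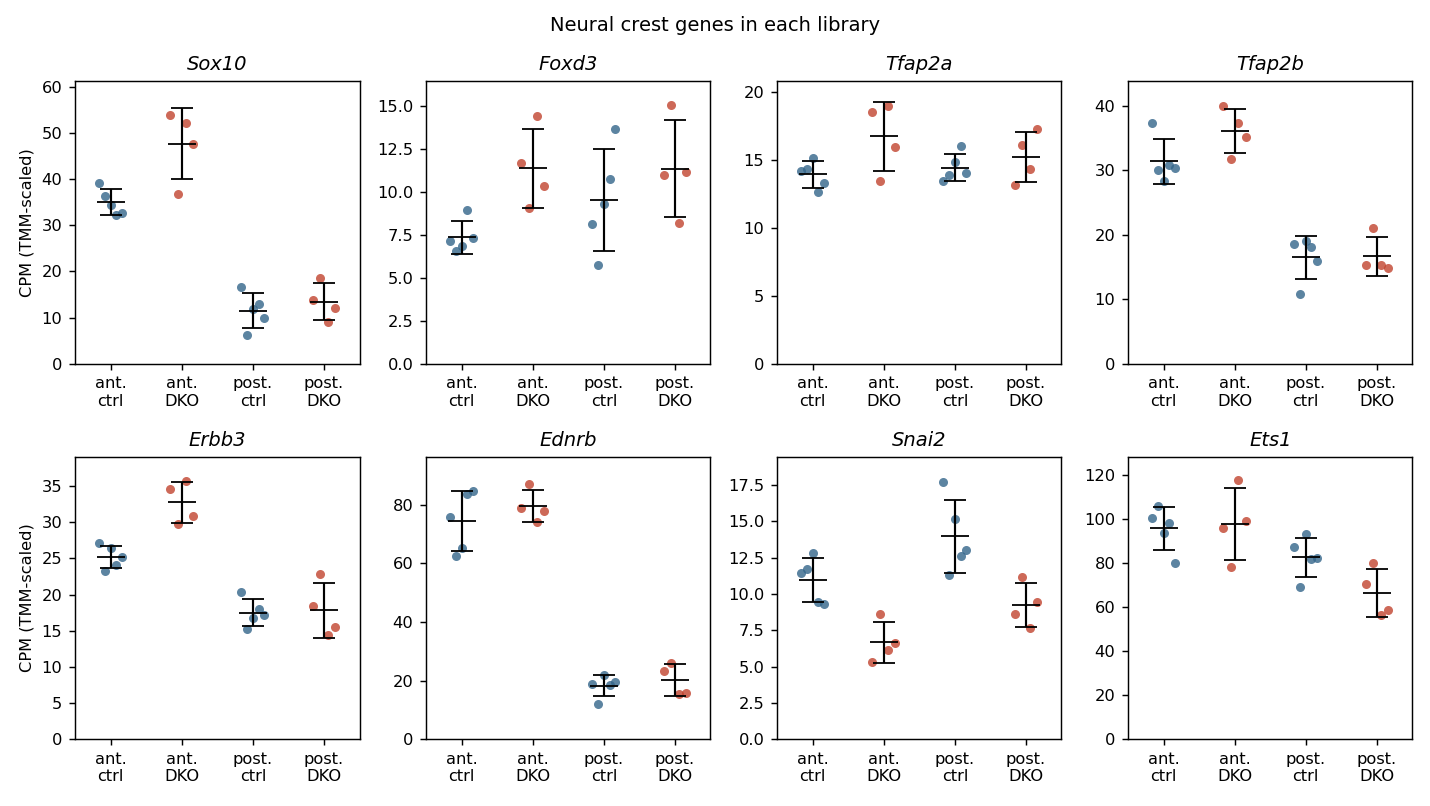
Level of the 8 neural crest genes in CPM (y axis, linear, from 0) in each of the 18 libraries (points) by region and genotype (x axis), with group means and SD; n is 5 control and 4 DKO embryos. Ednrb, Sox10, Tfap2b and Erbb3 are lower in the posterior groups, and Snai2 is lower in DKO than in control in both regions.

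Promoter windows of the 250 bases before a transcript start were found in RefSeq (GRCm38.p6) for Foxd3, Ednrb, Tfap2a and Tfap2b. The Foxd3 window ends where the gene begins, while the windows of Ednrb and Tfap2b precede starts that lie inside the span given above for the gene. The 3 printed here belong to Ednrb and Tfap2b, which were lower in the posterior piece, and to Foxd3, which was not. The windows of Tfap2a lie mostly in annotated exons and are not printed. Each window is given 5′ to 3′ on the strand of its gene, at chr4:99656049-99656298 (plus strand) for Foxd3, chr14:103843702-103843951 (minus strand) for Ednrb and chr1:19211804-19212053 (plus strand) for Tfap2b. None of their bases lies in an annotated exon, and capitals mark matches to the 5 motifs searched on both strands.
Foxd3: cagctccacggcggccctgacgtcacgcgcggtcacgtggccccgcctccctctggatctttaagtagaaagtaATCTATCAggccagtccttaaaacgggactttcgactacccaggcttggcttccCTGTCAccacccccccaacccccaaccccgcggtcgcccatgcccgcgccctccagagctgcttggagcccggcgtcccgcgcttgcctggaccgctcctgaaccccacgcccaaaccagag
Ednrb: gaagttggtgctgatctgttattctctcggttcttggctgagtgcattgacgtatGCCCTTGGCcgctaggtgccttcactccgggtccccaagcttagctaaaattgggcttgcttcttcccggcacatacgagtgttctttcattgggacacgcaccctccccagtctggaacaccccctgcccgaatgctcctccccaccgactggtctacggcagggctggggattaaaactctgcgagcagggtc
Tfap2b: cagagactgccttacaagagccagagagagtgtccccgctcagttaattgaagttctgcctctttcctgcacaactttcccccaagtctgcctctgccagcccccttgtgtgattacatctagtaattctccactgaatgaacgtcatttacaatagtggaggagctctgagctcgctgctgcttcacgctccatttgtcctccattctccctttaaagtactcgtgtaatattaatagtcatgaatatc
The motifs were TGACAG for Meis factors, TGATNNAT for Pbx-Hox pairs, ACAAAG for Sox factors, GCCNNNGGC for TFAP2 factors and CAGGTG for Snail-type factors. TGATNNAT and TGACAG can share bases, and the matches found do not overlap. The Foxd3 window held TGATNNAT on the other strand at -176 to -169 from the start and TGACAG, also on the other strand, at -122 to -117. The Ednrb window held GCCNNNGGC at -195 to -187. The Tfap2b window held none of the 5. Over all 32851 windows of the same length, TGACAG was found in 15.9%, TGATNNAT in 7.68%, ACAAAG in 16.5%, GCCNNNGGC in 13.7% and CAGGTG in 17.2%, so that any one match is common. A match is a description of the letters and not a binding site.

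The comparison of posterior with anterior pieces asks where along the axis the genes were expressed. In controls 4 of the 8 genes, Ednrb, Sox10, Tfap2b and Erbb3, were lower in the posterior piece, and no gene was higher by the test (edgeR quasi-likelihood test, Benjamini-Hochberg adjustment over all genes, threshold 0.05). Of all 15294 genes tested, 25.4% passed and 13.3% were called lower in the posterior piece, against 4 of 8 here. Ednrb was at 75.9, 62.4, 65.3, 83.6 and 84.7 CPM in anterior control 1 to 5 and at 18.9, 12.2, 21.8, 18.6 and 19.6 CPM in the posterior pieces of the same embryos. The groups were far apart, and the level was 4.08-fold lower in the posterior piece (log2 fold change -2.03, SE 0.139, adjusted p = 6.21e-07). Sox10 was at 39.1, 36.2, 34.5, 32.3 and 32.6 CPM in the anterior and at 16.6, 6.23, 11.8, 12.9 and 9.95 CPM in the posterior pieces. It was 3.01-fold lower (log2 fold change -1.59, SE 0.194, adjusted p = 5.92e-05), and posterior control 2, the embryo of 20 somites, was the lowest. Tfap2b, a paralogue of Tfap2a, was at 37.3, 30.1, 28.2, 30.7 and 30.3 CPM in the anterior and at 18.5, 10.8, 19.0, 18 and 16 CPM in the posterior pieces, or 1.90-fold lower (log2 fold change -0.93, SE 0.138, adjusted p = 0.000312). Erbb3, the receptor through which neuregulin acts on crest and Schwann cell precursors, was at 27.1, 23.2, 26.4, 24.1 and 25.1 CPM in the anterior and at 20.4, 15.2, 16.7, 18 and 17.2 CPM in the posterior pieces, or 1.44-fold lower (log2 fold change -0.52, SE 0.0831, adjusted p = 0.000513).

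The other 4 genes had no called difference between the regions in controls. Foxd3, a forkhead factor of premigratory crest, was at 7.14, 6.55, 6.84, 8.97 and 7.32 CPM in the anterior and at 8.12, 5.76, 9.33, 10.8 and 13.7 CPM in the posterior pieces (log2 fold change 0.37, SE 0.196, adjusted p = 0.209). The groups overlapped. Tfap2a was at 12.6 to 15.2 CPM in the anterior and 13.5 to 16 CPM in the posterior pieces (log2 fold change 0.05, SE 0.0792, adjusted p = 0.693). Tfap2a shares exon sequence with 3 antisense genes that were at no more than 0.612 CPM, and whether the counting used strand is not given in the sources used here. Ets1 was at 80.2 to 106 CPM and 69.1 to 93 CPM (log2 fold change -0.21, SE 0.0848, adjusted p = 0.0915), and it passed without control 5 (log2 fold change -0.26, adjusted p = 0.0494), where 21.4% of genes passed. Snai2, a zinc finger repressor of the Snail family, was at 11.4, 11.7, 12.8, 9.48 and 9.33 CPM in the anterior and at 17.7, 11.3, 15.1, 12.6 and 13 CPM in the posterior pieces (log2 fold change 0.35, SE 0.134, adjusted p = 0.0739). With the embryo as a block, which sets the 2 pieces of each embryo against each other, Snai2 passed with a log2 fold change of 0.34 (adjusted p = 0.0251), where 33.6% of genes passed. It also passed without control 2 (0.45, adjusted p = 0.0451), where 22.2% passed, and in DESeq2 (0.36, adjusted p = 0.0439), where 27.2% passed.

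The same 4 genes passed in DKO embryos, and Ets1 passed beside them. In DKO 5 of 8 genes were lower in the posterior piece, while 18.5% of all 15777 genes passed and 9.70% were called lower. Ednrb was at 79.0, 87.1, 74.1 and 77.8 CPM in anterior DKO 1 to 4 and at 23.4, 26.1, 15.6 and 15.9 CPM in posterior DKO 1 to 4, a 3.90-fold difference (log2 fold change -1.96, SE 0.158, adjusted p = 2.20e-05). Sox10 differed 3.52-fold (log2 fold change -1.82, SE 0.200, adjusted p = 0.000152), Tfap2b 2.16-fold (-1.11, SE 0.127, adjusted p = 0.000194) and Erbb3 1.83-fold (-0.87, SE 0.141, adjusted p = 0.00166). These 4 genes did not overlap between the regions in either genotype, as 10.7% of genes in controls and 12.7% in DKO were lower without overlap, and their calls held in all 11 alternatives run in controls and all 10 in DKO. Ets1 was at 95.9, 78.2, 118 and 99.1 CPM in the anterior and at 70.4, 80.1, 56.4 and 58.9 CPM in the posterior DKO pieces, with DKO 2 overlapping. It was 1.47-fold lower (log2 fold change -0.55, SE 0.138, adjusted p = 0.0181), and the call was lost without DKO 1 (log2 fold change -0.59, adjusted p = 0.0774), DKO 3 (-0.38, adjusted p = 0.0863) or DKO 4 (-0.50, adjusted p = 0.0772). The log2 fold change of Snai2 was 0.47 (SE 0.173, adjusted p = 0.0941), and it passed with the embryo as a block (0.48, adjusted p = 0.0263), where 19% of genes passed. Foxd3 had 0.01 (SE 0.194, adjusted p = 0.987) and Tfap2a -0.13 (SE 0.135, adjusted p = 0.579).

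**Figure D2:**
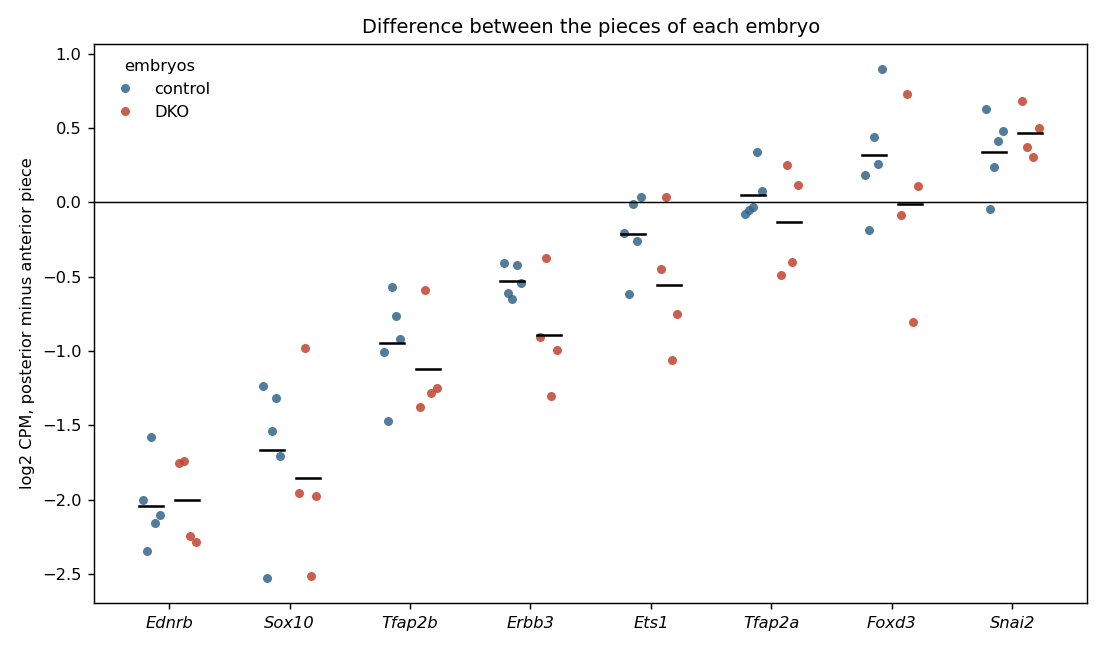
Difference between the pieces of each embryo, posterior minus anterior log2 CPM (y axis), for each of the 8 genes (x axis), with 1 point per embryo (5 control, 4 DKO) and a bar at the mean of each genotype. Ednrb, Sox10, Tfap2b and Erbb3 lie below 0 in 9 of 9 embryos and Snai2 above 0 in 8 of 9.

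Within single embryos, the posterior piece had less Ednrb, Sox10, Tfap2b and Erbb3 than the anterior piece in 9 of 9 embryos. The mean difference in log2 CPM was -2.02 for Ednrb (-2.35 to -1.58), -1.75 for Sox10 (-2.52 to -0.98), -1.03 for Tfap2b (-1.47 to -0.57) and -0.69 for Erbb3 (-1.30 to -0.37). Snai2 was higher in the posterior piece of 8 of 9 embryos, with a mean of 0.40. Ets1 was lower in 7 and Tfap2a in 5 of 9 embryos, and Foxd3 was higher in 6. Related factors thus stood in different proportion in the pieces, which is given as a description. The log2 ratio of Foxd3 to Sox10 per kilobase was -1.86 ± 0.26 in anterior and 0.14 ± 0.53 in posterior controls, and -1.68 ± 0.17 and 0.17 ± 0.11 in DKO. That of Tfap2b to Tfap2a was 0.79 in anterior and -0.21 in posterior controls, and 0.74 and -0.25 in DKO.

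Markers of other tissues also differed between the pieces. All 10 neural tube markers were called lower in the posterior piece in both genotypes, and their summed level was 517 to 657 CPM in anterior and 280 to 386 CPM in posterior controls. The roof plate list, the dorsal tissue that crest leaves, summed to 56.0 to 62.4 CPM in anterior and 86.6 to 110 CPM in posterior controls, but its members went both ways, with 3 of 8 called higher and 3 called lower in controls. Rspo3 was at a mean of 12.3 CPM in the anterior and 47.7 CPM in the posterior piece and Wnt3a at 11.4 and 19.9 CPM, while Wnt1 was at 14.4 and 6.25 CPM. Surface ectoderm markers were called higher in the posterior piece for 8 of 10 genes in both genotypes, with sums of 112 to 224 CPM in anterior and 270 to 381 CPM in posterior controls. Endothelial markers summed to 339 to 383 CPM and 217 to 361 CPM. Sclerotome markers, of the somite part that forms vertebrae, summed to 321 to 390 CPM in anterior and 383 to 484 CPM in posterior controls, with 4 of 8 called higher and 3 lower, and the log2 ratio of Snai2 to this sum was -5.00 ± 0.27 and -4.97 ± 0.26. No neural tube, roof plate, surface ectoderm, endothelial or sclerotome marker was at or under 3 counts throughout any group. The log2 ratio to the neural tube sum in controls was -4.08 ± 0.18 in the anterior and -4.90 ± 0.50 in the posterior piece for Sox10, -4.55 ± 0.19 and -4.23 ± 0.20 for Erbb3, and -6.33 ± 0.13 and -5.16 ± 0.30 for Foxd3. These ratios are a description, and the part of these tissues in the results for the 8 genes was not tested.

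The comparison of DKO with control in the anterior piece asks how loss of the Meis genes altered expression there. None of the 8 genes passed the test, against 6 of 15238 genes tested, or 0.0394%. Of the 8, 6 had an unadjusted p under 0.05 (4 to 6 when 1 embryo was left out, with 4 without DKO 1, DKO 3, control 4 or control 5), against 13% of all genes, and 3 did not overlap between the groups (Erbb3 and Foxd3 higher in DKO and Snai2 lower), against 5.07%. The median log2 fold change of the 8 was 0.23, beside 0.000137 for all genes, with 7 genes above 0, as were 50% of all genes. Erbb3 was at 34.5, 29.7, 35.7 and 30.9 CPM in anterior DKO 1 to 4, each above the highest control at 27.1 CPM, and the log2 fold change was 0.38 (SE 0.0743, unadjusted p = 0.0003, edgeR adjusted p = 0.0881). Foxd3 was at 11.7, 9.06, 14.4 and 10.3 CPM in DKO, each above the highest control at 8.97 CPM, and the log2 fold change was 0.63 (SE 0.143, unadjusted p = 0.0011, adjusted p = 0.123). Sox10 was at 53.8, 36.8, 52.2 and 47.6 CPM in DKO, where DKO 2 lay within the control range, and the log2 fold change was 0.45 (SE 0.104, unadjusted p = 0.0013, adjusted p = 0.129).

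Snai2 had the opposite sign in the anterior piece. It was at 5.32, 8.65, 6.18 and 6.64 CPM in DKO, each below the lowest control at 9.33 CPM, and the log2 fold change was -0.72 (SE 0.152, unadjusted p = 0.0006, adjusted p = 0.0995), a 1.64-fold difference. The other 4 genes had smaller values. Tfap2a was at 18.6, 13.5, 19.0 and 15.9 CPM in DKO (log2 fold change 0.27, SE 0.108, adjusted p = 0.337) and Tfap2b at 39.9, 31.8, 37.4 and 35.2 CPM (0.20, SE 0.0895, adjusted p = 0.375). Ednrb (0.10, SE 0.0924, adjusted p = 0.709) and Ets1 (0.03, SE 0.108, adjusted p = 0.944) overlapped between the groups.

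Whether these genes passed in the anterior piece depended on the test and on which embryos were included. DESeq2 called 4 of the 8 genes, namely Erbb3 (adjusted p = 0.00148), Snai2 (0.00204), Sox10 (0.0072) and Foxd3 (0.00997), against 1.94% of all genes. Without DKO 2, an embryo of 24 somites, edgeR called Sox10 (log2 fold change 0.55, adjusted p = 0.0234) and Snai2 (-0.86, adjusted p = 0.0390), while the adjusted p of Erbb3 was 0.0508 and that of Foxd3 0.0676, with 0.369% of all genes called. Leaving out DKO 1 instead raised the edgeR adjusted p of these 4 genes more than leaving out any other embryo. It was then 0.350 for Erbb3, 0.390 for Snai2, 0.473 for Sox10 and 0.439 for Foxd3. Among the anterior DKO libraries, DKO 2 also had the highest level of both deleted genes, at 111 CPM for Meis1 (others 89.8 to 108) and 157 CPM for Meis2 (others 130 to 146), and whether this bears on the 8 genes was not tested. With no filter on low counts Erbb3 passed (adjusted p = 0.0402), with 0.274% of all genes called. Across all alternatives the log2 fold changes ran from 0.33 to 0.42 for Erbb3, 0.38 to 0.55 for Sox10, 0.50 to 0.72 for Foxd3 and -0.86 to -0.62 for Snai2.

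**Figure D3:**
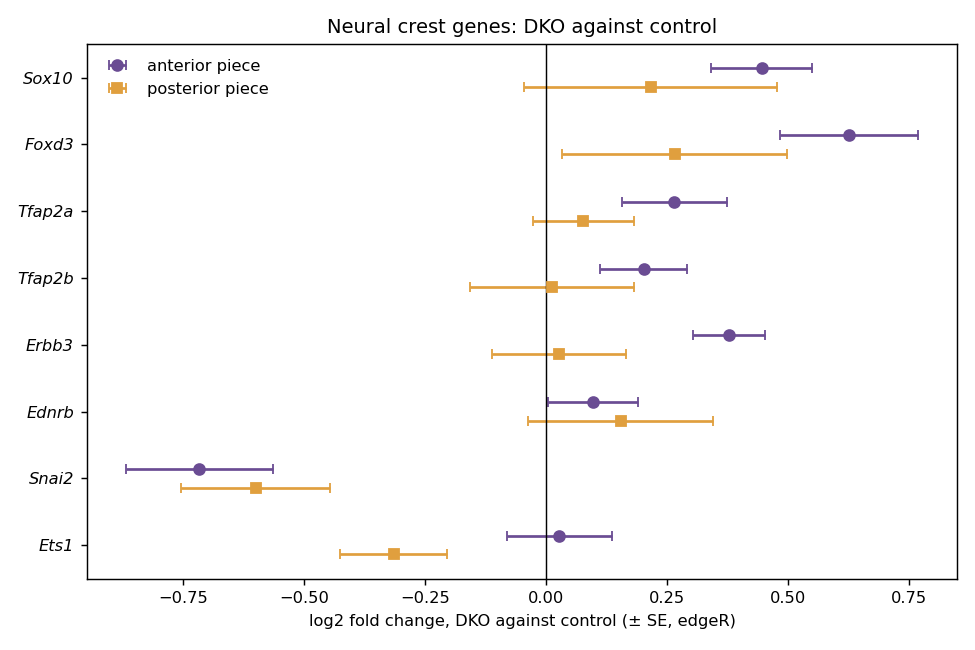
Log2 fold change of DKO against control (x axis) with its standard error for each of the 8 genes (y axis), in the anterior piece (circles) and the posterior piece (squares). Snai2 is at -0.72 and -0.60, Sox10, Foxd3 and Erbb3 are at 0.38 to 0.63 in the anterior piece, and no gene passed the adjusted threshold in edgeR.

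Marker lists of other tissues, some next to the crest, were also compared between the genotypes in the anterior piece. All 10 neural tube markers had log2 fold changes above 0 in DKO (median 0.32, with 1 gene, Hes5, called), and their sum was 517 to 657 CPM in control and 696 to 772 CPM in DKO, without overlap. The log2 ratio of Sox10 to this sum was -4.08 ± 0.18 in control and -3.95 ± 0.20 in DKO, that of Erbb3 -4.55 ± 0.19 and -4.48 ± 0.09, and that of Foxd3 -6.33 ± 0.13 and -6.02 ± 0.26. Sclerotome markers summed to 321 to 390 CPM in control and 217 to 286 CPM in DKO, also without overlap. The log2 ratio of Snai2 to this sum was -5.00 ± 0.27 in control and -5.32 ± 0.21 in DKO. The sum of the roof plate list overlapped between the groups, at 56.0 to 62.4 CPM in control and 53.5 to 62.3 CPM in DKO, but 4 of its 8 members had log2 fold changes above 0 and 4 below, and none was called. Rspo3 was at a mean of 12.3 CPM in control and 9.29 CPM in DKO, and Wnt3a at 11.4 and 13.6 CPM. Intermediate mesoderm and nephric duct markers had log2 fold changes below 0 in 8 of 8 cases (median -0.98, 5 with an unadjusted p under 0.05, none called), with sums of 22.4 to 42.8 CPM in control and 12.0 to 25.6 CPM in DKO. Surface ectoderm markers had log2 fold changes above 0 in 9 of 10 cases (median 0.23, 1 with an unadjusted p under 0.05, none called), with overlapping sums of 112 to 224 CPM in control and 136 to 224 CPM in DKO. The log2 ratio of Tfap2a to this sum was -3.44 ± 0.34 in control and -3.43 ± 0.21 in DKO. Endothelial markers were below 0 in 9 of 10 cases (median -0.17, 3 with an unadjusted p under 0.05), primitive erythroid markers in 8 of 8 (median -0.70, 0 with an unadjusted p under 0.05) and limb and lateral mesenchyme markers in 5 of 6 (median -0.86, 2 with an unadjusted p under 0.05), with none called in edgeR. The primitive erythroid sums overlapped, at 1044 to 5118 CPM in control and 1325 to 2232 CPM in DKO. The limb and lateral mesenchyme sums were 82.4 to 172 CPM in control and 65.3 to 76.5 CPM in DKO, without overlap. The part of these tissues in the values of the 8 genes was not tested, and the ratios are a description.

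In the posterior piece none of the 8 genes passed the comparison of DKO with control, against 2 of 15936 genes, or 0.0126%. An unadjusted p under 0.05 was found for 2 of the 8, Snai2 and Ets1 (1 without DKO 3), against 11% of all genes, and the median log2 fold change of the 8 was 0.05, beside 0.0111 for all genes. Snai2 was at 8.59, 11.2, 7.64 and 9.42 CPM in posterior DKO 1 to 4, and the highest DKO value, 11.20, lay just below the lowest control value, 11.34. It was the only one of the 8 without overlap, against 4.29% of genes, and its log2 fold change was -0.60 (SE 0.154, unadjusted p = 0.0024, edgeR adjusted p = 0.276), a 1.52-fold difference. DESeq2 called it (adjusted p = 0.0282), with 1.01% of genes called, and over all alternatives its log2 fold change ran from -0.71 to -0.50. Snai2 was thus lower in each DKO library than in each control library of the same region, in both regions. Sclerotome markers summed to 383 to 484 CPM in posterior control and 188 to 372 CPM in DKO. The log2 ratio of Snai2 to this sum was -4.97 ± 0.26 in control and -4.91 ± 0.20 in DKO.

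Ets1 was at 70.4, 80.1, 56.4 and 58.9 CPM in posterior DKO 1 to 4 and 69.1 to 93 CPM in controls (log2 fold change -0.32, SE 0.110, unadjusted p = 0.0152, adjusted p = 0.415). Endothelial markers were below 0 in 9 of 10 cases (median -0.25, 2 with an unadjusted p under 0.05, none called), with overlapping sums of 217 to 361 CPM in control and 214 to 307 CPM in DKO, and the log2 ratio of Ets1 to this sum was -1.80 and -1.93. Sox10 was at 13.8, 18.6, 9.08 and 12.0 CPM in DKO (log2 fold change 0.22, SE 0.261, adjusted p = 0.744) and Foxd3 at 11, 15.1, 8.22 and 11.2 CPM (0.27, SE 0.232, adjusted p = 0.643). Posterior DKO 2 was above the highest control for both genes, and the other 3 DKO libraries were within the range of controls. Without DKO 2 the log2 fold change was 0.015 for Sox10 and 0.10 for Foxd3, and without control 2 it was 0.059 and 0.13. Leaving out 1 embryo at a time gave 0.015 to 0.39 for Sox10, 0.10 to 0.42 for Foxd3 and 0.0099 to 0.26 for Ednrb, lowest without DKO 2 in each case, and 0.0022 to 0.14 for Tfap2a. Ednrb (0.15, adjusted p = 0.751), Tfap2a (0.08, adjusted p = 0.775), Erbb3 (0.03, adjusted p = 0.950) and Tfap2b (0.01, adjusted p = 0.982) overlapped as well. Neural tube markers were above 0 in 10 of 10 cases here too (median 0.31). Intermediate mesoderm and nephric duct markers were below 0 in 8 of 8 cases (median -1.11, 8 with an unadjusted p under 0.05, none called), and their sum was 96.9 to 110 CPM in control and 45.4 to 73.1 CPM in DKO, without overlap. Surface ectoderm markers were above 0 in 7 of 10 cases (5 with an unadjusted p under 0.05, none called), and their sum was 270 to 381 CPM in control and 388 to 457 CPM in DKO, without overlap. The log2 ratio of Tfap2a to this sum was -4.47 ± 0.24 in control and -4.80 ± 0.23 in DKO. Primitive erythroid markers were above 0 in 8 of 8 cases (median 0.52, 5 with an unadjusted p under 0.05, none called), and in the test of the difference between the regions 8 of 8 were above 0 (7 with an unadjusted p under 0.05, none called). Limb and lateral mesenchyme markers were below 0 in 5 of 5 tested (median -0.27, none called). Dermomyotome and myotome markers were below 0 in 4 of 5 tested and above 0 in 1 (3 with an unadjusted p under 0.05, none called). Their sum was 96.6 to 114 CPM in control and 79.1 to 95.3 CPM in DKO, without overlap. The part of these tissues in the posterior values was not tested.

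Whether the DKO values differed between the regions was tested directly as an interaction. No gene of 16428 passed in edgeR, while 567 genes, 3.45%, had an unadjusted p under 0.05 and DESeq2 called 10. The 8 genes had an adjusted p of 0.999. The smallest unadjusted p among them were 0.0447 for Erbb3 (log2 difference posterior minus anterior -0.35, SE 0.162) and 0.0552 for Ets1 (-0.34). A difference between the regions in the response of the 8 genes was therefore not shown, and this also holds for the call of Ets1 between regions in DKO and not in controls.

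The embryos differed in somite number, so the log2 change per somite was fitted with genotype in the model. In the posterior piece all 8 genes had a slope above 0, as did 51.3% of all genes, and 6 had an unadjusted p under 0.05, against 6.42% of all genes, but none passed the adjusted threshold, which 2 of 15936 genes (0.0126%) did. The slope per somite was 0.20 for Sox10 (SE 0.0728), 0.17 for Foxd3 (SE 0.0674), 0.15 for Ednrb (SE 0.0496) and 0.13 for Snai2 (SE 0.0376). It was 0.12 for Tfap2b (SE 0.0472), 0.09 for Ets1 (SE 0.0263), 0.09 for Erbb3 (SE 0.0416) and 0.02 for Tfap2a (SE 0.0359). Without control 2, an embryo of 20 somites, 2 of the 8 genes had an unadjusted p under 0.05, and without DKO 2, of 24 somites, 3 did, while the slopes of all 8 genes stayed above 0. The slope without control 2 was 0.14 for Sox10, 0.11 for Foxd3 and 0.065 for Tfap2b, and without DKO 2 it was 0.047 for Erbb3. Leaving out 1 embryo at a time gave slopes of 0.010 to 0.035 for Tfap2a. In the fit of all embryos, Erbb3 and Tfap2a were the 2 with an unadjusted p above 0.05. The edgeR adjusted p of the 8 ran from 0.414 upwards. In this fit the slopes were also above 0 for 10 of 10 neural tube, 10 of 10 endothelial and 8 of 8 sclerotome markers. The same held for 8 of 8 primitive erythroid and 5 of 5 tested dermomyotome and myotome markers. Fewer were above 0 among intermediate mesoderm and nephric duct (6 of 8), roof plate (4 of 6), limb and lateral mesenchyme (2 of 5) and surface ectoderm markers (2 of 10). None of these markers was called. In the anterior piece none of the 8 genes passed, while 5 of 15238 genes (0.0328%) did. The median slope of the 8 was -0.03, and Ets1 had the smallest unadjusted p (slope -0.09, SE 0.0259, unadjusted p = 0.00697, adjusted p = 0.198).

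**Figure D4:**
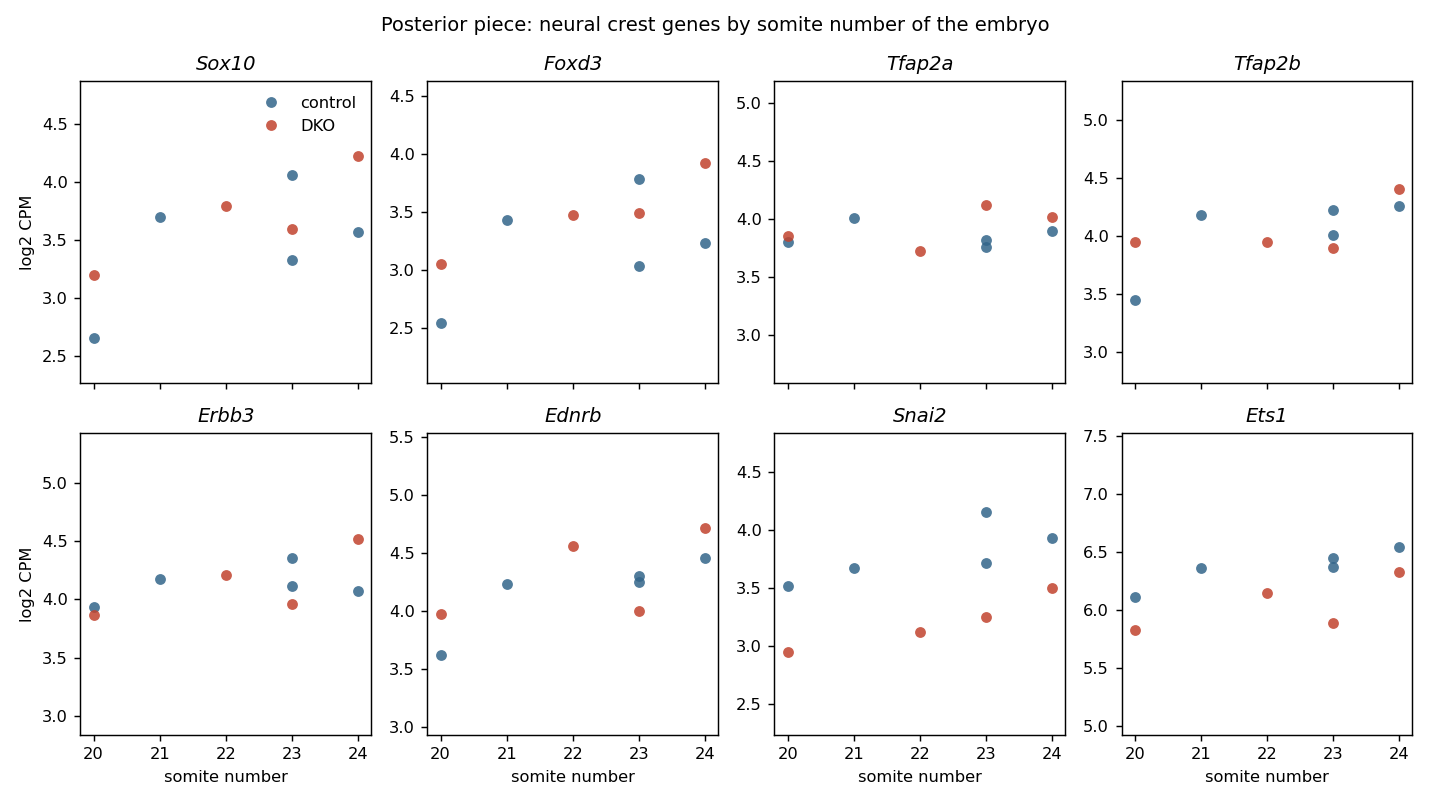
Level of the neural crest genes in log2 CPM (y axis) against the somite number of the embryo (x axis) in the posterior piece, with 1 point per library and genotype shown by colour. In the posterior piece Sox10, Foxd3, Ednrb and Snai2 have fitted slopes of 0.13 to 0.20 per somite, and none passed the adjusted threshold.

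After the group means were removed, the 8 genes varied together to different degrees in the 2 pieces. The correlations are given as a description over libraries, which share embryo, stage and depth. Over all 18 libraries the 28 pairs had a median Pearson r of 0.50, and 26 pairs were above 0, from -0.24 for Tfap2a with Ednrb to 0.86 for Sox10 with Tfap2b. In the 9 posterior libraries Ednrb with Ets1 reached 0.97, Sox10 with Tfap2b 0.88, Sox10 with Erbb3 0.87 and Sox10 with Snai2 0.86. In the 9 anterior libraries Sox10 with Tfap2a reached 0.89, while Sox10 with Snai2 was at -0.49, Foxd3 with Snai2 at -0.70 and Ednrb with Ets1 at -0.62. The genes most like each member over the 18 libraries, of 11809 searched, were Cd248 (0.88) and Col4a2 (0.87) for Sox10, Irx3 (0.88) and Skida1 (0.88) for Foxd3, and Rxra (0.88) and Ncald (0.86) for Tfap2b. They were Klhl21 (0.81) and Lck (0.79) for Tfap2a, Fam102a (0.86) and Eya2 (0.85) for Erbb3, and Lrrn1 (0.92) and Galnt16 (0.92) for Ednrb. For Snai2 they were Runx1t1 (0.86) and Tgfb3 (0.83), and for Ets1 they were Epha7 (0.88) and Farp2 (0.88).

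**Figure D5:**
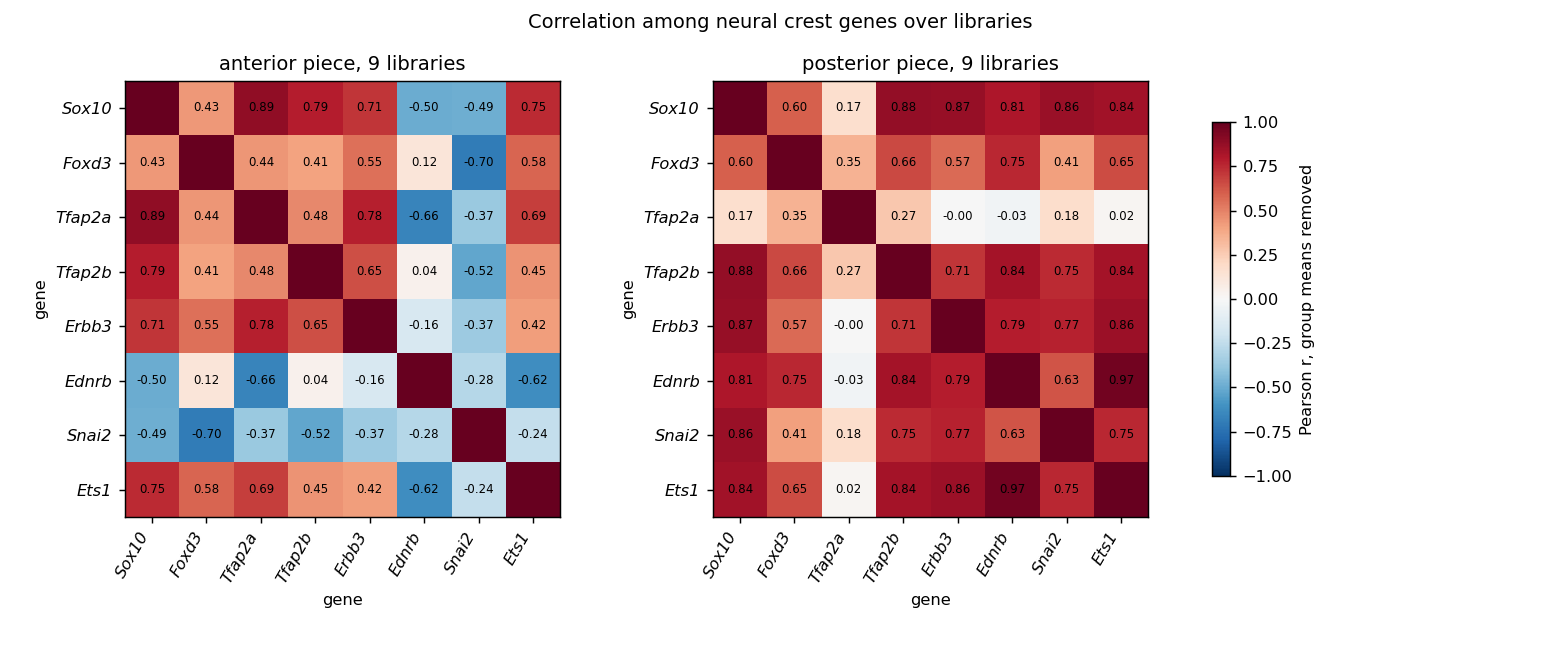
Pearson r between each pair of the 8 genes (both axes) over the 9 anterior libraries (left) and the 9 posterior libraries (right), after subtraction of the group means; colour runs from -1 to 1. Sox10 with Snai2 is at -0.49 in the anterior and 0.86 in the posterior panel.

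Among 16 other crest specifiers, the DKO comparisons called no gene in either region. In the anterior piece the median log2 fold change of the list was 0.03, and the smallest p was that of Twist1, a factor of mesenchyme and of the epithelial to mesenchymal transition (log2 fold change -0.43, SE 0.0985, adjusted p = 0.123). Twist1 passed in DESeq2 (adjusted p = 0.00266), with no filter (0.0491) and with somite number as a covariate (0.0448). In the posterior piece it was that of Msx1, a homeobox factor of the dorsal neural tube (0.38, SE 0.131, adjusted p = 0.409). Between the regions, 3 specifiers were called higher and 7 lower in the posterior piece of controls, and 4 higher and 6 lower in DKO, of 16 tested. Of all genes, 12.1% were called higher and 13.3% lower in controls, and 8.76% higher and 9.70% lower in DKO. Gbx2, a homeobox factor of the neural border, rose 2.33-fold from 12.8 to 29.8 CPM in controls (log2 fold change 1.22, SE 0.0899) and had a log2 fold change of 1.18 in DKO. Snai1, the paralogue of Snai2, was higher by 0.55 in controls and 0.45 in DKO. Zic1 was 6.66-fold lower in the posterior piece of controls (147 against 22.1 CPM, log2 fold change -2.74) and had -2.37 in DKO. Pax7, which marks dorsal neural tube and crest, had -1.98 and -1.61. Msx2 was higher by 0.78 in controls and 1.11 in DKO, and its control call was lost without control 1, 2, 4 or 5 (0.58 to 0.81, adjusted p 0.0753 to 0.107). Sox8, a relative of Sox10, was lower in controls at -0.66, a call lost without control 5 (-0.59, adjusted p = 0.0785), and Zeb2 was lower in DKO at -0.58.

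Genes of crest migration and adhesion gave no call in either DKO comparison, with 13 tested in the anterior and 12 in the posterior piece. The smallest p were those of the semaphorin receptor Nrp1 in the anterior piece (log2 fold change -0.42, adjusted p = 0.178; DESeq2 adjusted p = 0.0312) and of the Slit receptor Robo1 in the posterior piece (-0.45, adjusted p = 0.316). Between the regions 2 of 13 were called higher and 6 lower in the posterior piece of controls, and 1 of 12 higher and 3 lower in DKO. Of all genes, 12.1% were called higher and 13.3% lower in controls and 8.76% and 9.70% in DKO, so that the counts called higher were near the share over all genes. Epha4, an ephrin receptor, was higher in the posterior piece by 0.68 in controls and 0.52 in DKO on the log2 scale, and the DKO call was lost without DKO 1 (0.40, adjusted p = 0.256), DKO 2 (0.52, adjusted p = 0.0507) or DKO 3 (0.53, adjusted p = 0.0957). Robo2, a Slit receptor, was higher by 0.63 in controls (adjusted p = 0.000333). Itga4, an integrin subunit, was 2.75-fold lower in controls (log2 fold change -1.46, SE 0.258) and had -1.43 in DKO. The low-affinity neurotrophin receptor Ngfr had -0.73 in controls and -0.81 in DKO, and the DKO call was lost without DKO 1 (log2 fold change -0.66, adjusted p = 0.102). Cdh11, a cadherin of mesenchyme, had -0.55 and -0.49, and its DKO call was lost without DKO 3 (-0.49, adjusted p = 0.0529).

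The list of ligands and partner receptors held 7 genes of the neuregulin and endothelin systems, in which Erbb3 and Ednrb act, and 6 other ligands and receptors of crest cells. It gave no call in either DKO comparison, with 13 tested in the anterior and 12 in the posterior piece. Erbb2, the kinase partner of Erbb3, was at 61.0 ± 6.26 CPM in anterior and 71.1 ± 8.07 CPM in posterior controls (SD, n = 5) and at 67.8 ± 5.06 and 72.8 ± 1.94 CPM in DKO (SD, n = 4). The ligand Nrg1 was at 6.29 ± 1.28 and 7.93 ± 1.11 CPM in controls and 6.38 ± 0.70 and 7.42 ± 0.53 CPM in DKO. Edn3, the ligand of Ednrb, was at 10.3 ± 1.19 and 8.61 ± 0.94 CPM in controls and 8.75 ± 0.80 and 7.33 ± 0.83 CPM in DKO. None of these 3 genes was called between regions or genotypes, and they were chosen for naming after their values were seen. Among the other genes, Cxcl12, a chemokine that guides migrating cells, was at a mean of 162 CPM in anterior controls and 115 CPM in anterior DKO (log2 fold change -0.49, SE 0.105, adjusted p = 0.102). It passed in DESeq2 (adjusted p = 0.000583), with no filter (0.0351), with somite number as a covariate (0.0303, where 0.551% of all genes passed) and without DKO 2 (0.0296). Gdnf, the ligand of the Ret and Gfra1 receptor pair, was at 0.71 on the log2 scale in the posterior DKO comparison (SE 0.147, adjusted p = 0.196; DESeq2 adjusted p = 0.00599). Between the regions 4 of 13 were called higher and 2 lower in the posterior piece of controls, and 3 of 12 higher and 1 lower in DKO. The counts called lower were near the share over all genes, which was 13.3% in controls and 9.70% in DKO, and the share of all genes called higher was 12.1% and 8.76%. Gdnf was higher by 2.35 in controls and 2.90 in DKO on the log2 scale, Ret by 1.44 and 0.86, and Kitl, the ligand of Kit on pigment cell precursors, by 0.82 and 0.96. Gfra1 went the other way, at -0.69 in controls (adjusted p = 0.0024) and -1.37 in DKO (adjusted p = 0.0303). The control call of Gfra1 was lost with all 18 libraries in 1 fit (-0.70, adjusted p = 0.0671), and the DKO call without DKO 1 (-1.21, adjusted p = 0.161) or DKO 4 (-1.39, adjusted p = 0.0808). The nephric duct also expresses Ret, and intermediate mesoderm and nephric duct markers summed to 22.4 to 42.8 CPM in anterior and 96.9 to 110 CPM in posterior controls, the part of which was not tested.

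Markers of crest derivatives gave no call in the DKO comparisons, with 17 tested in the anterior and 16 in the posterior piece. Neurog2, a proneural factor of sensory neurons and of the neural tube, had the smallest p in the anterior piece, at 36.2 CPM in control and 49.4 CPM in DKO (log2 fold change 0.45, SE 0.0968, adjusted p = 0.103). Neurog2 passed in DESeq2 (adjusted p = 0.00307), with no filter (0.0402) and without DKO 4 (0.0405). Gata2 had the smallest p in the posterior piece (-0.33, adjusted p = 0.444). Between the regions 4 of 18 were called higher and 9 lower in the posterior piece of controls, and likewise 4 and 9 in DKO, against 12.1% of all genes called higher and 13.3% lower in controls and 8.76% and 9.70% in DKO. Neurod1, a factor of neuronal differentiation, was 9.59-fold lower in the posterior piece of controls (7.13 against 0.75 CPM), and Neurog1 was 7.33-fold lower in DKO. Isl1, a factor of sensory and motor neurons, was higher in the posterior piece of controls by 1.10 on the log2 scale. Hand2 was higher in the posterior piece by 2.85 in controls and 4.07 in DKO on the log2 scale, and the control value was 3.95 without control 3, whose anterior library had the highest Hand2 level of the anterior controls (9.72 CPM, median 1.43). In the same library limb and lateral mesenchyme markers summed to 172 CPM, against 82.4 to 85.2 CPM in the other anterior controls. Kit was higher by 0.97 and 0.71, where the DKO call was lost without DKO 1 at a log2 fold change of 0.73 (adjusted p = 0.0656).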

How the data were processed

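Polyadenylated RNA from dissected pieces was sequenced as single-end 61 bp reads, per the labels' protocols. The deposited values are expected counts per Ensembl gene, estimated by RSEM on GRCm38 after cutadapt, per the submitters' processing notes; their versions, the aligner and the strand setting are not given in the sources used here. Expected counts were rounded and tested with edgeR 4.0.16 (R 4.3.3; TMM scaling, filterByExpr with a minimum count of 10 and a minimum total of 15, quasi-likelihood F test, Benjamini-Hochberg adjustment over all genes tested, threshold 0.05). The SE is the log2 fold change divided by the square root of F. CPM are TMM-scaled over 18 libraries, log2 CPM use a prior count of 2, and CPM per kb divide by exon length in GENCODE M21, in which 53360 of the 53465 IDs were found. Alternatives were DESeq2 1.42.0, other size factors, other filters, somite number as a covariate, 1 fit of all libraries, the embryo as a block and leaving out each embryo. The script was tested on simulated counts.

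The 2 pieces of an embryo were matched by genotype, sex label and somite number. Deviations from group means correlated at 0.436 to 0.768 between the pieces of 1 embryo (9 pairs) and at -0.421 to 0.127 between different embryos of a genotype (32 pairs), so the numbers pair the libraries. In the comparisons of DKO with control and the somite fits within a region, the embryo is the replicate, and p-values measure the spread between embryos. The main region and interaction tests took the 2 pieces of an embryo as separate libraries, so their p-values ignore the pairing. Only the fits with the embryo as a block use it.

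The 8 genes and all lists were chosen with earlier results of these data known. List genes were named by rule: in region comparisons from the 3 with the largest called log2 fold change per list and direction and a mean of at least 50 counts, and in DKO comparisons the gene with the smallest p per list. Some list genes that the rule names are not reported here. Promoter sequences are from RefSeq.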

Additional observations from a re-analysis of the deposited data

Results flagged for a closer look

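Of 84 groups of 4 or 5 libraries examined, 8 held 1 library far from the others, and chance sets about 5% of groups apart in this way. Among the crest genes, Tfap2b was at 37.3 CPM in anterior control 1, while the other anterior controls were at 28.2 to 30.7 CPM. Tfap2b was also at 21.1 CPM in posterior DKO 2, while the other posterior DKO libraries were at 14.8 to 15.3 CPM. The summed level of the other crest specifiers was 629 CPM in posterior control 2 and 689 to 707 CPM in the other posterior controls. Among the markers of other tissues, neural tube genes summed to 338 CPM in posterior DKO 3 (others 417 to 432) and sclerotome genes to 217 CPM in anterior DKO 1 (others 278 to 286). Endothelial genes summed to 383 CPM in anterior control 3 (others 339 to 351), and limb and lateral mesenchyme genes summed to 172 CPM in the same library (others 82.4 to 85.2). Intermediate mesoderm genes summed to 96.9 CPM in posterior control 3 (others 107 to 110).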

How the results depend on the processing

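The region calls of Ednrb, Sox10, Tfap2b and Erbb3 held in every alternative run, and scaling by other size factors changed no call of the 8 genes. With 4 or 5 embryos a group, the DKO counts depended on the tool. In the anterior piece the 6 calls became 296 in DESeq2 (4 of the 8 genes), 83 with no filter (1 of the 8), 84 with somite number as a covariate and 19 with all libraries in 1 fit. In the posterior piece the 2 calls became 161 (1 of the 8), 14, 7 and 51 in the same order, and 1 among genes with a mean of at least 50 counts. The interaction count of 0 became 10 in DESeq2. The somite counts of 5 and 2 became 352 and 141 in DESeq2 and 162 and 29 with no filter, and the first became 9 among genes with a mean of at least 50 counts.

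Leaving out 1 embryo at a time gave 1 to 57 calls in the anterior and 2 to 24 in the posterior DKO comparison, with 0 to 2 and 0 of the 8 genes. It gave 2922 to 3377 calls for region in controls and 1728 to 2550 in DKO, each with 4 to 5 of the 8 genes. It gave 0 to 1 for the interaction and 0 to 134 and 0 to 29 for somite number in the anterior and posterior piece. With the embryo as a replicate block, region calls went from 3884 to 5136 in controls and from 2913 to 3004 in DKO, the interaction stayed at 0, Snai2 passed between regions in both genotypes, and Foxd3 in DKO went from 0.01 to -0.00069. The block changed no other call of the 8 genes. No block can be fitted for DKO against control within a region, where each embryo gives 1 library.

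Signs of values near 0 changed when 1 embryo was left out. The log2 fold change ran from -0.072 to 0.12 for Ets1 in the anterior DKO comparison, and in the posterior one from -0.12 to 0.067 for Tfap2b and -0.12 to 0.11 for Erbb3. It ran from -0.021 to 0.087 for Tfap2a between regions in controls, from -0.25 to 0.26 for Foxd3 between regions in DKO, and from -0.036 to 0.17 for Ednrb in the interaction. The anterior somite slope ran from -0.043 to 0.0012 for Tfap2b, -0.032 to 0.022 for Erbb3 and -0.00025 to 0.065 for Ednrb. The cause of these changes was not tested.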
